A study of Homo sapiens with 8 samples.

Results

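The data compared 2 groups of RNA sequencing libraries after 2 days of cardiac differentiation. One group came from cells that had been exposed to 2 nM TCDD (2,3,7,8-tetrachlorodibenzodioxin, dissolved in DMSO) as embryonic stem cells. The other came from cells given the same volume of DMSO, and each group had 2 libraries (TCDD replicates 1 and 2, DMSO replicates 1 and 2). All cells were of MEL1, an established human embryonic stem cell line, with no genetic change named in the labels. At this time, called D2 here, both groups had been moved from stem cell medium into RPMI1640 with B27 minus insulin and 5 µM of the GSK3 inhibitor CHIR99021. Another 4 libraries, 2 with TCDD and 2 with DMSO, were taken just before differentiation (D1) and serve below to set the D2 differences beside those of the stem cells. The labels place the exposure at the stem cell stage and do not give its length, so whether TCDD was still in the medium at D2 is not known. They also do not say whether replicates were separate cultures, and all p-values measure only the spread between these libraries, which may be technical. The 4 libraries at D2 are those titled for that day and treatment, of 8 in all. Every gene symbol of the deposited tables was considered, 27317 in all, of which 17268 had enough counts to be tested and 10049 did not.

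TCDD binds tightly to the aryl hydrocarbon receptor (AHR). This transcription factor waits in the cytosol with HSP90 and, once it holds a ligand, enters the nucleus and pairs with ARNT. The pair binds xenobiotic response elements and induces cytochrome P450 genes of the CYP1 family, together with TIPARP and AHRR, which in turn limit the receptor. CHIR99021 blocks GSK3, which frees beta-catenin and so mimics a Wnt signal. In stem cells this starts the gene programme of the primitive streak, the structure from which mesoderm and endoderm arise. Nodal and Activin signals, fibroblast growth factors and bone morphogenetic proteins act with Wnt in this step. The streak is marked by the T-box factors T (Brachyury) and EOMES and the homeobox factor MIXL1, and cells that leave it lose SOX2.

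The D2 libraries held 37614004 and 42289654 counts with DMSO and 43770420 and 37933672 counts with TCDD. Levels below are counts scaled to a common library total (CPM), given as DMSO replicates 1 and 2 and then TCDD replicates 1 and 2. The stage named in the labels showed in its markers in both groups. The summed level of 7 streak and early mesoderm markers was 810.2 and 788 CPM with DMSO and 474 and 545 CPM with TCDD, with 5 of 7 lower by the test below, and MIXL1 went from 1.32 and 1.58 CPM in the DMSO libraries of D1 to 308 and 286 CPM at D2. The summed level of 6 pluripotency markers was 3818 and 3885 CPM with DMSO and 4170.0 and 4189 CPM with TCDD, with SOX2 higher. Markers of other cell types were low and none was called outside the fibroblast list: 3 endoderm markers summed to 6.64 to 8.28 CPM, 3 neuroectoderm markers to 1.45 to 1.66, 6 endothelial and blood markers to 0.641 to 0.846 5 cardiomyocyte markers to 8.15 to 9.35 and 4 neuron markers to 38.8 to 45.4. The trophoblast marker CGA had no count. The 6 fibroblast markers summed to 225 and 211 CPM with DMSO and 270.1 and 269 CPM with TCDD. COL1A1 was the called member, while DCN and LUM, which define fibroblasts, had no count in any D2 library. In whole cultures, fewer cells of a type and less RNA per cell cannot be told apart, and this holds for each gene below.

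Between libraries of the same group, the median absolute log2 difference over 10375 genes was 0.0448 with DMSO and 0.0563 with TCDD, against 0.0551 to 0.0796 between libraries of different groups. On the first principal component of the 4 libraries (47.9% of the variance) the treatments separated, and on the second (26.9%) the replicates of each group did. TCDD replicate 2 held the least mitochondrial ribosomal RNA of the 4, with RNR2 at 6786 and 9124 CPM with DMSO and 6111 and 4691 CPM with TCDD. RNR2 passed the test as lower (log2 fold change -0.56 ± 0.11, edgeR adjusted p = 0.00511) and lost that call without DMSO replicate 2 or TCDD replicate 2 (edgeR adjusted p = 0.18 to 0.192), with DESeq2 and with a robust fit. Its part in the other results was not tested.

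At D2, 509 of 17268 genes (2.95%) differed between TCDD and DMSO, 243 higher with TCDD (1.41%) and 266 lower (1.54%). Counts of called genes in the lists below are to be read beside these shares, and 1 call in a short list does not set it apart. A gene was called higher or lower when its Benjamini-Hochberg adjusted p in the edgeR quasi-likelihood F test over all tested genes was at most 0.05. Most differences were small. At least 2-fold differences were seen in 24 of the genes called higher and 28 of those called lower, while 167 calls were under 1.25-fold. The median log2 fold change was 0.40 among genes called higher, -0.44 among those called lower and 0.00081 over all tested genes. In each of the 509 called genes both TCDD libraries lay on the same side of both DMSO libraries, a pattern that 47.7% of all tested genes showed in either direction. Where it is mentioned below for a called gene, it describes the libraries and adds no support to the call. The number of calls rested on single libraries, and was 198 without DMSO replicate 1, 246 without DMSO replicate 2, 368 without TCDD replicate 1 and 220 without TCDD replicate 2.

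**Figure D1:**
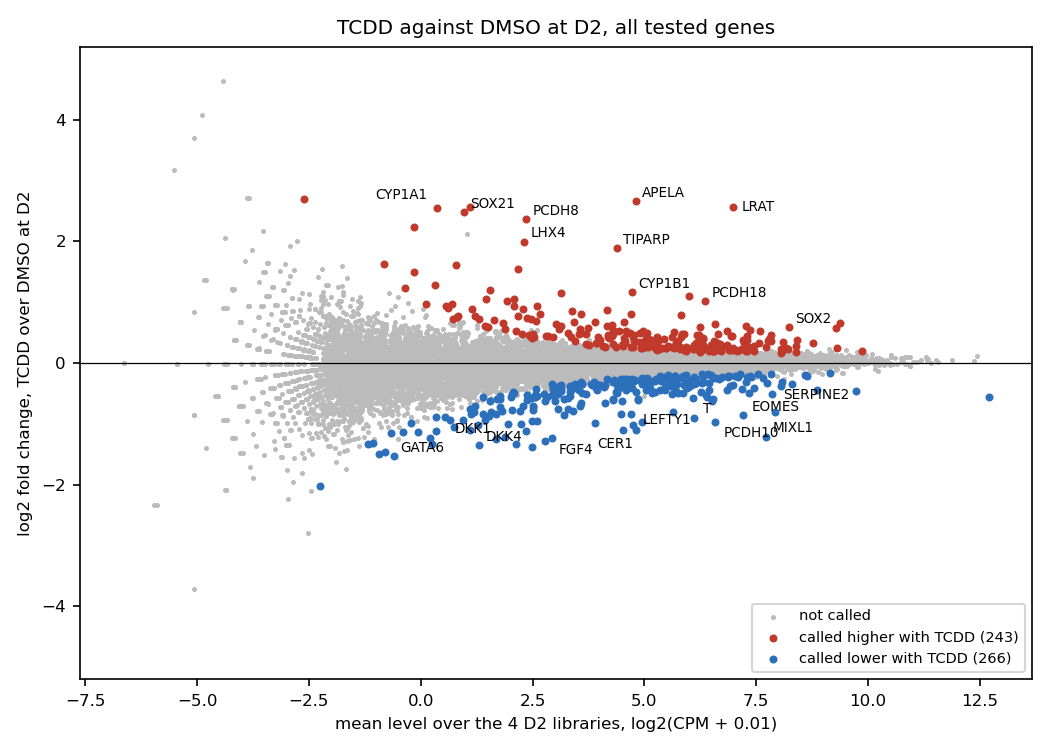
Each point is 1 of the 17268 tested genes; the x axis gives its mean level over the 4 D2 libraries as log2(CPM + 0.01) and the y axis its log2 fold change, TCDD over DMSO, at D2. The 243 genes called higher (red) and 266 called lower (blue) are mostly within 1 log2 unit of 0, and LRAT, APELA, TIPARP and CYP1A1 stand among the largest rises.

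Some genes known as AHR targets, led by CYP1A1, TIPARP and CYP1B1, were higher at D2 in cells that had met TCDD. Of 22 listed targets 17 had enough counts, among them CYP1A2 through the TCDD libraries of D1. LRAT was put on the list with its earlier result known. Of the 17, 7 were called higher and none lower, 9 higher and none lower at an unadjusted p under 0.05, and DESeq2 and limma voom each called 7 higher and none lower. The other 10 of the 17 were not called. The median log2 fold change over the 17, CYP1A2 and LRAT included, was 0.25 and describes the list only. CYP1A1, the cytochrome P450 that oxidises aromatic hydrocarbons, stood at 0.464 and 0.292 CPM with DMSO and 2.56 and 1.82 CPM with TCDD, or 2.56 ± 0.35 in log2 fold change ± its standard error (SE; edgeR adjusted p = 0.000176). Below, a value in brackets after a gene or a call is its log2 fold change, TCDD over DMSO, with the SE after ±. Both TCDD libraries were above both DMSO libraries, at raw counts of 17 and 12 with DMSO and 108 and 66 with TCDD. The related enzyme CYP1B1 was at 15.9 and 16.4 CPM with DMSO and 35.9 and 36.8 CPM with TCDD (log2 fold change 1.17 ± 0.06, edgeR adjusted p = 1.18e-09). The replicates of CYP1B1 differed by less than 1 CPM, and the groups did not overlap. Its homolog CYP1A2 had counts of 0 and 0 with DMSO and 5 and 1 with TCDD and was not called (edgeR adjusted p = 0.234).

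The AHR repressor TIPARP, which modifies the receptor with ADP-ribose, was at 8.3 and 9.49 CPM with DMSO and 33.3 and 32.6 CPM with TCDD (log2 change 1.89 ± 0.07, edgeR adjusted p = 1.68e-11). Its libraries fell into 2 tight pairs. A pair of transcripts that neighbour TIPARP moved with it, the antisense gene TIPARP-AS1 from 0.437 and 0.487 to 1.16 and 1.02 CPM (1.24 on the log2 scale, edgeR adjusted p = 0.0124) and LINC00886 from 0.874 and 0.56 to 1.61 and 1.87 CPM (1.29, edgeR adjusted p = 0.00334). TIPARP-AS1 lost its call without either DMSO library or TCDD replicate 1 (edgeR adjusted p = 0.0948 to 0.14) and with DESeq2, and LINC00886 without replicate 2 of either group (adjusted p = 0.0552 to 0.116). Without a stated strand setting, reads of TIPARP and its antisense gene cannot be told apart. AHRR, the repressor that competes with AHR for ARNT, was not called, with overlapping levels of 1.28 and 1.09 CPM with DMSO and 1.26 and 1.43 CPM with TCDD (edgeR adjusted p = 0.781). The receptor itself, AHR, was at 10.2 and 12.8 CPM with DMSO and 12.2 and 12.1 with TCDD and its partner ARNT at 70.6 and 70.4 CPM with DMSO and 73.6 and 70.8 with TCDD, and neither was called (edgeR adjusted p = 0.815 and 0.819). The chaperones HSP90AA1, HSP90AB1 and PTGES3 had log2 fold changes of 0.04, 0.03 and -0.05, none of them called.

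The other called members of the AHR target list, apart from LRAT, moved less. SLC7A5, the light chain of the LAT1 amino acid transporter, was at 476 and 553 CPM with DMSO and 726 and 892 CPM with TCDD (log2 change 0.65 ± 0.09, edgeR adjusted p = 0.000121). SLC3A2, the heavy chain of the same transporter and not on the list, was at 281 and 308 CPM with DMSO and 369 and 403 with TCDD (log2 change 0.39 ± 0.06, edgeR adjusted p = 0.000266). In both genes the 2 replicates of each group stood well apart, replicate 2 above replicate 1, and the groups still did not overlap. SLC7A5 lost its call with a robust fit. NQO1, a quinone reductase, and NFE2L2, the transcription factor of the antioxidant response, had log2 fold changes of 0.23 and 0.25 (edgeR adjusted p = 0.0252 and 0.0158). NQO1 lost its call without any 1 of the 4 D2 libraries (edgeR adjusted p = 0.0739 to 0.322), and NFE2L2 without either DMSO library or TCDD replicate 2 (adjusted p = 0.105 to 0.26). NQO1 was also the single called gene among 14 antioxidant enzymes, beside 1.41% of all tested genes called higher. HMOX1, GCLM and TXNRD1 were at -0.02, -0.09 and 0.11. HES1, a transcriptional repressor that can answer both Notch and AHR, was at 18.2 and 17.7 CPM with DMSO and 20.4 and 23 with TCDD and was not called (edgeR adjusted p = 0.0647).

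The retinoid genes that were called act in storage, in the reduction of retinal and in breakdown. LRAT, which esterifies retinol for storage, was at 39.7 and 33.8 CPM with DMSO and 226 and 209 CPM with TCDD, 5.94-fold higher (log2 fold change 2.57 ± 0.07, edgeR adjusted p = 2.64e-14), the smallest p of all genes. DHRS3, which reduces retinal back to retinol, was at 10.1 and 9.68 CPM with DMSO and 13.8 and 14.1 with TCDD (log2 change 0.49 ± 0.08, edgeR adjusted p = 0.000868). CYP26A1, which breaks down retinoic acid, was lower, at 9.75 and 8.93 CPM with DMSO and 6.79 and 6.99 CPM with TCDD (log2 change -0.44 ± 0.10, edgeR adjusted p = 0.0146). Without DMSO replicate 1 or either TCDD library its call was lost (edgeR adjusted p = 0.0932 to 0.223), as it was with DESeq2. These were the 3 called of 20 tested retinoid genes, and the median over the list was 0.037. The retinol importer STRA6, the binding proteins CRABP1 and CRABP2 and the receptors RARA, RARG and RXRA had log2 fold changes of -0.11, 0.06, 0.07, -0.07, -0.06 and 0.12, none called.

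Promoters of 4 genes are shown: CYP1A1 and TIPARP as AHR targets, SOX21 as a large rise and MIXL1 as a large fall, both described below. They show where the letters lie that the AHR and ARNT pair, or beta-catenin's partners, are known to recognise. RefSeq gave a promoter, from 250 bases before to 50 bases after the annotated start on GRCh38.p14, for 13035 of the tested genes. The core of the xenobiotic response element, GCGTG on either strand, was searched as a plain letter match, as was CTTTGAT, a sequence bound by the TCF and LEF partners of beta-catenin. Matches to either are in capitals, with CACGC where the core reads on the other strand.
CYP1A1, chr15:74725479-74725778, minus strand: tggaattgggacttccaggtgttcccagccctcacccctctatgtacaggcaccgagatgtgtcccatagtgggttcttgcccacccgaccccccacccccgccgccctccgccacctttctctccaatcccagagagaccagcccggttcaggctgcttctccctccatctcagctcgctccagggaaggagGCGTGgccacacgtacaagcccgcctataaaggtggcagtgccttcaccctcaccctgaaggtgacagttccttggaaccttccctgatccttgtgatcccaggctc
TIPARP, chr3:156674340-156674639, plus strand: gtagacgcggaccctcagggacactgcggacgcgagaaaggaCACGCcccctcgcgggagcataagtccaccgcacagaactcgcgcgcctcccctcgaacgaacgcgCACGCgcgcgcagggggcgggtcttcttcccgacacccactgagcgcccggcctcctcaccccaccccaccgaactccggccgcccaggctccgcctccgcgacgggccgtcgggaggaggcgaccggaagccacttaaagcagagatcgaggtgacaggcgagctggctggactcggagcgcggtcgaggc
SOX21, chr13:94712496-94712795, minus strand: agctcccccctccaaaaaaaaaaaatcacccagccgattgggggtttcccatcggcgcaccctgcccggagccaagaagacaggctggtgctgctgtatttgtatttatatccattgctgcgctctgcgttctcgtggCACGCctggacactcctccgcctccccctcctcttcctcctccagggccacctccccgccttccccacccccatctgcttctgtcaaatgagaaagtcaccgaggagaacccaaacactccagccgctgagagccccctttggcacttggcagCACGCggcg
MIXL1, chr1:226223414-226223713, plus strand: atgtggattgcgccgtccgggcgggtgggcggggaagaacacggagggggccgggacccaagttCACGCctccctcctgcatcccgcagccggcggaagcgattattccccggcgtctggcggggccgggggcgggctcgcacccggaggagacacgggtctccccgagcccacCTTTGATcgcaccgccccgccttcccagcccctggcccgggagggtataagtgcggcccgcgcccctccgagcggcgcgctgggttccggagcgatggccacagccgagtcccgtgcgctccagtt

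The core GCGTG was in 49.0% of all 13035 promoters, in 46.7% of the 184 promoters of genes called higher and in 46.3% of the 190 of genes called lower. Among the 42 promoters of genes called higher at both D1 and D2 it was in 61.9%. The longer form TNGCGTG, which contains the core, was in 7.03%, 4.35%, 8.42% and 14.3% of the same 4 sets. CYP1A1 had 1 match, TIPARP and SOX21 had 2 each, and AHRR and LHX4 had 1 each. Among genes called lower, T had 2 matches to the core and MIXL1 and WNT3 had 1 each. LRAT, APELA, MYADML2 and PCDH8 had none in this window. CTTTGAT was in 1.42% of all promoters, in none of the 184 of genes called higher and in 1.05% of those called lower. MIXL1 had 1 match to it, and T, EOMES, GSC, WNT3, DKK1, CER1, GATA6 and GDF3 had none. A match is a run of letters and not a bound site.

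The streak factors MIXL1, T, EOMES, GSC and EVX1 were lower with TCDD. Of 15 tested transcription factors of the primitive streak these 5 were called lower and 1 was called higher, 9 were not called, and the median log2 fold change was -0.12. MIXL1 was at 308 and 286 CPM with DMSO and 119 and 137 CPM with TCDD (log2 change -1.21 ± 0.06, edgeR adjusted p = 5.38e-10). The T gene was at 92.7 and 88.3 CPM with DMSO and 45.2 and 52 CPM with TCDD (log2 change -0.90 ± 0.06, edgeR adjusted p = 8.07e-08). EOMES was at 196 and 186 CPM with DMSO and 101 and 111 CPM with TCDD (log2 change -0.86 ± 0.05, edgeR adjusted p = 1.55e-08). In all 3 genes the DMSO libraries were the 2 highest, and TCDD replicate 1 was the lowest of the 4.

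GSC, a homeobox factor of the anterior streak, was at 8.43 and 7.54 CPM with DMSO and 3.3 and 5.06 CPM with TCDD (log2 change -0.95 ± 0.15, edgeR adjusted p = 0.000779). EVX1, a homeobox factor of the posterior streak, was at 10.7 and 12.8 CPM with DMSO and 5.13 and 8.12 with TCDD (log2 change -0.85 ± 0.16, edgeR adjusted p = 0.00488), and lost its call without DMSO replicate 2 or TCDD replicate 1 (edgeR adjusted p = 0.0783 to 0.116), with DESeq2 and with a robust fit. Within the streak factors the difference was uneven. SP5 and SP8, targets of Wnt signalling, had log2 fold changes of 0.11 and 0.15, and TBX6, a factor of paraxial mesoderm, -0.12, and none of the 3 was called.

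**Figure D2:**
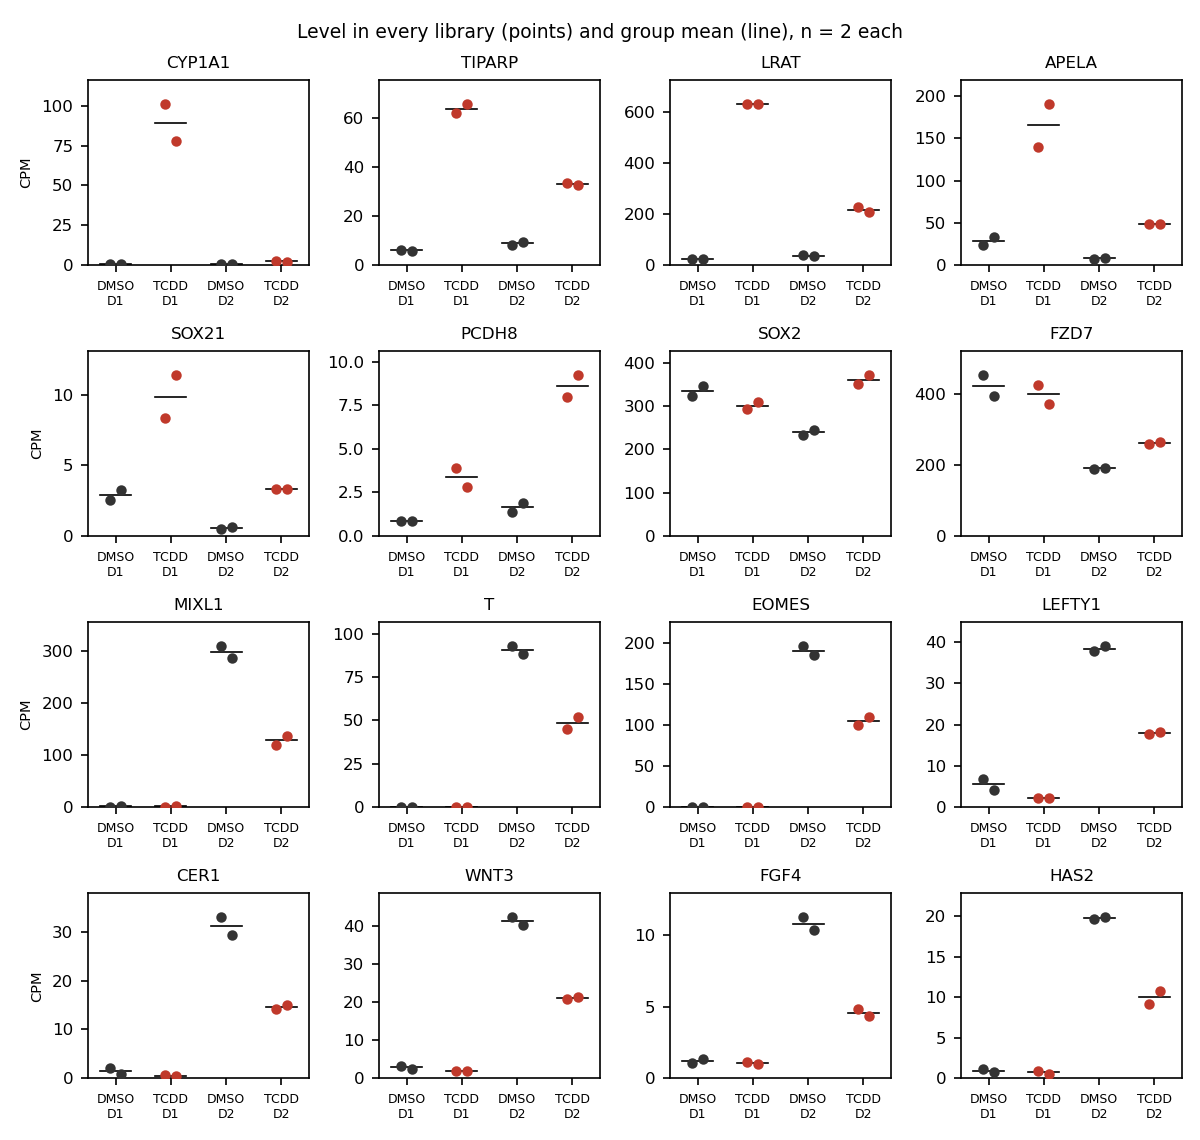
Level of 16 genes in CPM (y axis, from 0) in every library (points, red with TCDD) at D1 and D2, with the mean of each group of 2 as a line. At D2, the TCDD points of MIXL1, T, EOMES, LEFTY1, CER1, WNT3, FGF4 and HAS2 lie below both DMSO points, and those of the first 8 genes, CYP1A1 to FZD7, above them.

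In the Nodal pathway 1 of 4 tested ligands and coreceptors and 4 of 15 inhibitors and feedback genes were called, all lower. The ligand NODAL was at 279 and 303 CPM with DMSO and 252 and 274 CPM with TCDD and was not called (edgeR adjusted p = 0.24). Both its TCDD libraries lay below both DMSO libraries, as they did in 23.3% of all tested genes. GDF3, a related ligand that works with Nodal, was at 29 and 28 CPM with DMSO and 15 and 17.1 CPM with TCDD (log2 change -0.83 ± 0.08, edgeR adjusted p = 5.71e-06), and the coreceptor TDGF1 (Cripto) did not pass (0.08). Among 11 tested receptors and SMAD transducers 1 was called, FOXH1, the DNA-binding partner of SMAD2 in Nodal signalling, at 130.3 and 136 CPM with DMSO and 165 and 168 with TCDD (log2 change 0.32 ± 0.05, edgeR adjusted p = 0.000242). TGFBR1, ACVR2B and SMAD4 stood at -0.02, -0.02 and 0.01.

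The 4 called of the 15 Nodal and TGF-beta inhibitors were LEFTY1, LEFTY2, CER1 and BAMBI (DESeq2 called 2 lower, limma voom 3). LEFTY1, a secreted antagonist that Nodal itself induces, was at 37.9 and 39 CPM with DMSO and 17.7 and 18.2 CPM with TCDD (log2 change -1.10 ± 0.11, edgeR adjusted p = 3.7e-06). Its near-identical copy LEFTY2, with which it may share reads, was at 29.2 and 25.7 CPM with DMSO and 17.1 and 18.5 with TCDD (log2 change -0.63 ± 0.09, edgeR adjusted p = 0.000192). CER1 (Cerberus), which binds Nodal, BMP and Wnt ligands outside the cell, was at 32.9 and 29.3 CPM with DMSO and 14.1 and 15 CPM with TCDD (log2 change -1.10 ± 0.11, edgeR adjusted p = 8.31e-06), a call that DESeq2 did not make. In these 3 genes both DMSO libraries were higher than both TCDD libraries by at least 7 CPM. BAMBI, a decoy receptor, was lower by less (-0.34, edgeR adjusted p = 0.0465) and lost its call without any 1 of the 4 D2 libraries (adjusted p = 0.057 to 0.336), with RLE scaling, with DESeq2 and with limma voom. The median over the 15 genes was -0.022, and FST, SMAD7, SKIL and SKI (0.11, 0.21, -0.17 and 0.10) were not called.

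Few genes of later mesoderm and endoderm were expressed at D2, and those called were lower. Of 22 lateral and cardiac mesoderm genes 12 were testable and 4 were called lower (GATA4, GATA6, APLNR and BMP4; DESeq2 called 1 lower and limma voom 3), while 7 of the 12 had log2 fold changes above 0 and the median was 0.21. HAND1 had counts of 4 and 6 with DMSO and 0 and 2 with TCDD, and NKX2-5 at most 1 count in a library, too few to test. GATA4, a factor of heart and endoderm precursors, was at 10.9 and 11.2 CPM with DMSO and 6.41 and 8.39 CPM with TCDD (log2 change -0.59 ± 0.12, edgeR adjusted p = 0.0061). It lost its call without either DMSO library or TCDD replicate 1 (edgeR adjusted p = 0.0567 to 0.13). Its relative GATA6 was near the limit of detection, with counts of 30 and 45 with DMSO and 12 and 14 with TCDD (log2 change -1.53 ± 0.32, edgeR adjusted p = 0.00986), and lost its call without DMSO replicate 2 or either TCDD library (adjusted p = 0.0543 to 0.19). MESP1, the factor that marks the first cardiac progenitors, was at 1.01 and 1.07 CPM with DMSO and 1.35 and 1.29 with TCDD and was not called (edgeR adjusted p = 0.507). ISL1, a factor of later cardiac progenitors, had counts of 11 and 8 with DMSO and 10 and 20 with TCDD and was not called either (edgeR adjusted p = 0.575). KDR and PDGFRA, receptors of mesoderm progenitors, had log2 fold changes of -0.12 and 0.28, also not called. Among 11 testable endoderm genes the 3 called lower were CER1, GATA4 and GATA6 (1 lower by DESeq2 and 3 by limma voom), while FOXA2 (-0.15), HHEX (0.01) and KIT (0.08) were not called and SOX17 had at most 1 count.

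The apelin system changed at both ends. APELA, which encodes the early-embryo hormone Elabela, had the largest called rise of the genes named here, from 7.45 and 7.83 CPM with DMSO to 48.4 and 48.7 CPM with TCDD (6.34-fold, log2 fold change 2.66 ± 0.15, edgeR adjusted p = 3.1e-09). Replicates of APELA agreed within 0.4 CPM in each group. Its receptor APLNR, a marker of early mesoderm, was at 3.41 and 2.38 CPM with DMSO and 1.83 and 1.46 CPM with TCDD (log2 change -0.80 ± 0.20, edgeR adjusted p = 0.0338), and lost its call without DMSO replicate 1 or either TCDD library (adjusted p = 0.0716 to 0.489), with DESeq2 and with limma voom. The second ligand, APLN, was not called (log2 change 0.25).

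Wnt pathway genes moved in both directions. Of 16 testable Wnt ligands and R-spondins, WNT3, which the embryo needs to form the streak, was called lower, at 42.2 and 40.2 CPM with DMSO and 20.7 and 21.4 CPM with TCDD (log2 change -0.97 ± 0.07, edgeR adjusted p = 1.6e-07). WNT10B was called higher, at 13.8 and 17 CPM with DMSO and 21.8 and 20 with TCDD (log2 change 0.44 ± 0.10, edgeR adjusted p = 0.0157), and lost its call without DMSO replicate 1 or either TCDD library (adjusted p = 0.0548 to 0.343). WNT3A, WNT5B and WNT8A were not called (log2 changes -0.50, 0.07 and -0.50). A pair of secreted antagonists of the Dickkopf family fell. DKK1, which removes the coreceptor LRP6 from the surface, was at 4.39 and 4.65 CPM with DMSO and 1.95 and 1.84 CPM with TCDD (log2 change -1.25 ± 0.15, edgeR adjusted p = 4.41e-05). DKK4 was at 3.19 and 3.89 CPM with DMSO and 1.33 and 1.46 with TCDD (log2 change -1.35 ± 0.18, edgeR adjusted p = 0.000258), and in both genes the groups did not overlap. SFRP1, an antagonist that binds Wnt ligands, rose instead, from 111 and 99.1 to 147 and 137 CPM (log2 change 0.44 ± 0.06, edgeR adjusted p = 0.000112). Of the 12 testable antagonists, 1 was called higher and 3 lower, CER1 being the third.

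Among 20 Wnt receptors and coreceptors 5 were called higher and 1 lower. ROR1, a receptor of the Wnt5 branch, was at 74.7 and 74.8 CPM with DMSO and 116 and 116 CPM with TCDD (log2 change 0.63 ± 0.05, edgeR adjusted p = 4.19e-07). LGR4, the receptor of R-spondins, was at 92.5 and 96.7 CPM with DMSO and 139 and 135 with TCDD (log2 change 0.53 ± 0.05, edgeR adjusted p = 3.7e-06), and FZD7, the main Frizzled receptor of human stem cells, at 189.9 and 192 CPM with DMSO and 261 and 265 with TCDD (log2 change 0.46 ± 0.06, edgeR adjusted p = 0.000185). The replicates of these 3 receptors were within 5 CPM of each other in each group, and both TCDD libraries were higher. FZD2 (0.36) and the receptor-removing ligase RNF43 (0.24) were called higher and FZD5 (-0.32) lower. FZD2 lost its call without DMSO replicate 1 or TCDD replicate 2 (edgeR adjusted p = 0.0523 to 0.068), RNF43 without either DMSO library or TCDD replicate 2 (adjusted p = 0.117 to 0.547), with no scaling and with DESeq2, and FZD5 without replicate 1 of either group (adjusted p = 0.0556 to 0.115). LRP6, RYK and PTK7 were not called (log2 changes -0.01, -0.04 and 0.01). PRICKLE1, a planar polarity protein of the same branch, was at 41.3 and 39.6 CPM with DMSO and 91.9 and 81.8 CPM with TCDD (log2 change 1.11 ± 0.07, edgeR adjusted p = 2.8e-08), while the polarity protein VANGL1, chosen after its values were seen, was lower, at 71.7 and 72 CPM with DMSO and 57.1 and 61.8 with TCDD (-0.27, edgeR adjusted p = 0.00616, and 0.0814 to 0.115 without either DMSO library or TCDD replicate 1).

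Among the 22 tested genes listed as beta-catenin targets, the repressor TCF7L1 included, 4 were called higher and 1 lower (BMP4, below). DESeq2 called 3 higher and none lower. Log2 fold changes were above 0 in 15 of the 22, with a median of 0.14. CDX2, a caudal factor of the posterior embryo, was at 7.89 and 9.49 CPM with DMSO and 14 and 16.5 CPM with TCDD (log2 change 0.81 ± 0.11, edgeR adjusted p = 0.000192). AXIN2, the common readout of the pathway, was at 139 and 151 CPM with DMSO and 161 and 171 with TCDD (log2 change 0.19 ± 0.05, edgeR adjusted p = 0.0495), and TCF7L1, a repressor that beta-catenin displaces, at 118 and 115 CPM with DMSO and 135 and 142 with TCDD (log2 change 0.25 ± 0.05, edgeR adjusted p = 0.0037). AXIN2 lost its call in 6 of 8 fits without 1 library, all but those without a TCDD library of D1 (edgeR adjusted p = 0.0581 to 0.564), and with no composition scaling. TCF7L1 was not called in the fits without DMSO replicate 1, DMSO replicate 2 or TCDD replicate 2 (adjusted p = 0.0544 to 0.0977). LEF1, NKD1, CCND1 and MYC had log2 fold changes of -0.05, 0.15, 0.12 and -0.09, none called. CDX1 and CDX4 (0.37 and -0.08) and the early HOX gene HOXB1 (-0.02) were not called.

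Of 18 tested fibroblast growth factors and receptors 3 were called lower and 1 higher, and the falls included FGF4 and FGF8, which the streak expresses. FGF4 was at 11.2 and 10.4 CPM with DMSO and 4.82 and 4.37 CPM with TCDD (log2 change -1.23 ± 0.11, edgeR adjusted p = 1.43e-06). FGF8, which cells need to leave the streak, was at 24 and 23.6 CPM with DMSO and 14.1 and 17.3 with TCDD (log2 change -0.60 ± 0.09, edgeR adjusted p = 0.000756). FGF13, an intracellular member of the family, was at 51.1 and 49.4 CPM with DMSO and 37.5 and 38.7 with TCDD (log2 change -0.40 ± 0.05, edgeR adjusted p = 0.00011), and the groups did not overlap in any of the 3. FGF2, FGFR1 and FGFR4 were not called (log2 changes 0.12, 0.06 and 0.04), and FGFR2 was called higher (0.22) and lost that call without either DMSO library or TCDD replicate 1 (edgeR adjusted p = 0.0749 to 0.313). Of 18 feedback and target genes of the ERK pathway downstream, edgeR called 4 lower and 1 higher, limma voom 2 lower and DESeq2 none lower, with a median of -0.20. The 4 were the phosphatases DUSP6 (-0.61) and DUSP5 (-0.49), the inhibitor SPRY4 (-0.53) and the early gene FOS (-0.61). Each lost its call in 3 or 4 of the fits without a D2 library. DUSP6 and FOS did so without DMSO replicate 1 or either TCDD library (adjusted p = 0.123 to 0.411 and 0.0536 to 0.322), and DUSP5 and SPRY4 without any 1 of the 4 (adjusted p = 0.161 to 0.231 and 0.118 to 0.387). PHLDA1, a pleckstrin-related target, was the rise (0.25) and lost its call without either DMSO library or TCDD replicate 1 (adjusted p = 0.0539 to 0.225).

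BMP4, the ligand of posterior and lateral mesoderm, was at 13.6 and 13.6 CPM with DMSO and 9.78 and 11.7 CPM with TCDD (log2 change -0.34 ± 0.09, edgeR adjusted p = 0.049), and lost its call in 5 of 8 fits without 1 library, those without DMSO replicate 1 or 2 of either time or TCDD replicate 1 of D2 (edgeR adjusted p = 0.0582 to 0.35). It was also lost with RLE scaling, DESeq2 and a filter of 1 CPM. It was the single call among 19 BMP ligands, receptors and antagonists, beside 1.54% of all tested genes called lower. ID1, a BMP target that blocks basic helix-loop-helix factors, was at 62.5 and 58.6 CPM with DMSO and 42.1 and 45.5 CPM with TCDD (log2 change -0.47 ± 0.06, edgeR adjusted p = 0.000116). ID4 was at 7.07 and 6.86 CPM with DMSO and 4.6 and 5.03 with TCDD (log2 change -0.53 ± 0.11, edgeR adjusted p = 0.0114), a call lost without any 1 of the 4 D2 libraries (adjusted p = 0.0523 to 0.12). ID2 and ID3 were not called (log2 changes -0.07 and -0.06). In the list of 15 BMP targets 3 were called lower (ID1, ID4 and BAMBI), with a median of -0.061.

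SOX2, SOX21 and PRDM14, which are on in pluripotent or neural cells, were higher with TCDD. SOX2, a factor of both, was at 233 and 246 CPM with DMSO and 350.4 and 372 CPM with TCDD (log2 change 0.59 ± 0.05, edgeR adjusted p = 8.48e-07). At D1 it had stood at 323 and 347 CPM with DMSO and 292 and 309 CPM with TCDD, so that both TCDD libraries of D2 lay above the DMSO libraries of D1. SOX21, its neural relative, was at 0.519 and 0.657 CPM with DMSO and 3.35 and 3.3 with TCDD (log2 change 2.48 ± 0.25, edgeR adjusted p = 5.52e-06), beside its antisense transcript SOX21-AS1 at 0.628 and 1.05 CPM with DMSO and 2.63 and 2.59 with TCDD (1.62, edgeR adjusted p = 0.000237). PRDM14, a repressor that guards pluripotency, was at 20.5 and 19.8 CPM with DMSO and 26 and 27.6 with TCDD (log2 change 0.41 ± 0.06, edgeR adjusted p = 0.000608). SOX2 and PRDM14 were the 2 called higher of 22 pluripotency genes, beside 1.41% of all tested genes. POU5F1, NANOG, LIN28A, DNMT3B and DPPA4 were not called (log2 changes 0.13, -0.15, 0.11, 0.02 and -0.01).

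SOX2 and SOX21 were likewise the 2 called among 15 neuroectoderm genes, with PAX6, NES and POU3F1 at -0.04, 0.10 and 0.10. SOX1, an early neural marker, had counts of 1 and 1 with DMSO and 10 and 2 with TCDD and was too low to test. LHX4, a LIM homeobox factor of motor neurons and pituitary, was at 1.91 and 2.07 CPM with DMSO and 7.78 and 8.17 CPM with TCDD (log2 change 2.00 ± 0.15, edgeR adjusted p = 1.56e-07). OLIG3, a neural progenitor factor, was at 0.437 and 0.487 CPM with DMSO and 1.19 and 1.46 with TCDD (2.83-fold higher, edgeR adjusted p = 0.00289) and lost its call without DMSO replicate 1 or TCDD replicate 2 (adjusted p = 0.0572 to 0.0607). HES3, a repressor of neural stem cells, was at 13.4 and 15 CPM with DMSO and 21.8 and 21.7 with TCDD (log2 change 0.61 ± 0.09, edgeR adjusted p = 0.000617). Of 19 Notch genes 1 was called, the ligand JAG1 (0.23, edgeR adjusted p = 0.0291), beside 1.41% of all tested genes called higher. JAG1 lost its call without either DMSO library or TCDD replicate 1, and with no scaling. DLL1 was at 4.23 and 4.72 CPM with DMSO and 6.22 and 6.82 with TCDD and was not called (edgeR adjusted p = 0.0702), though 7 of the 17 alternative fits called it.

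**Figure D3:**
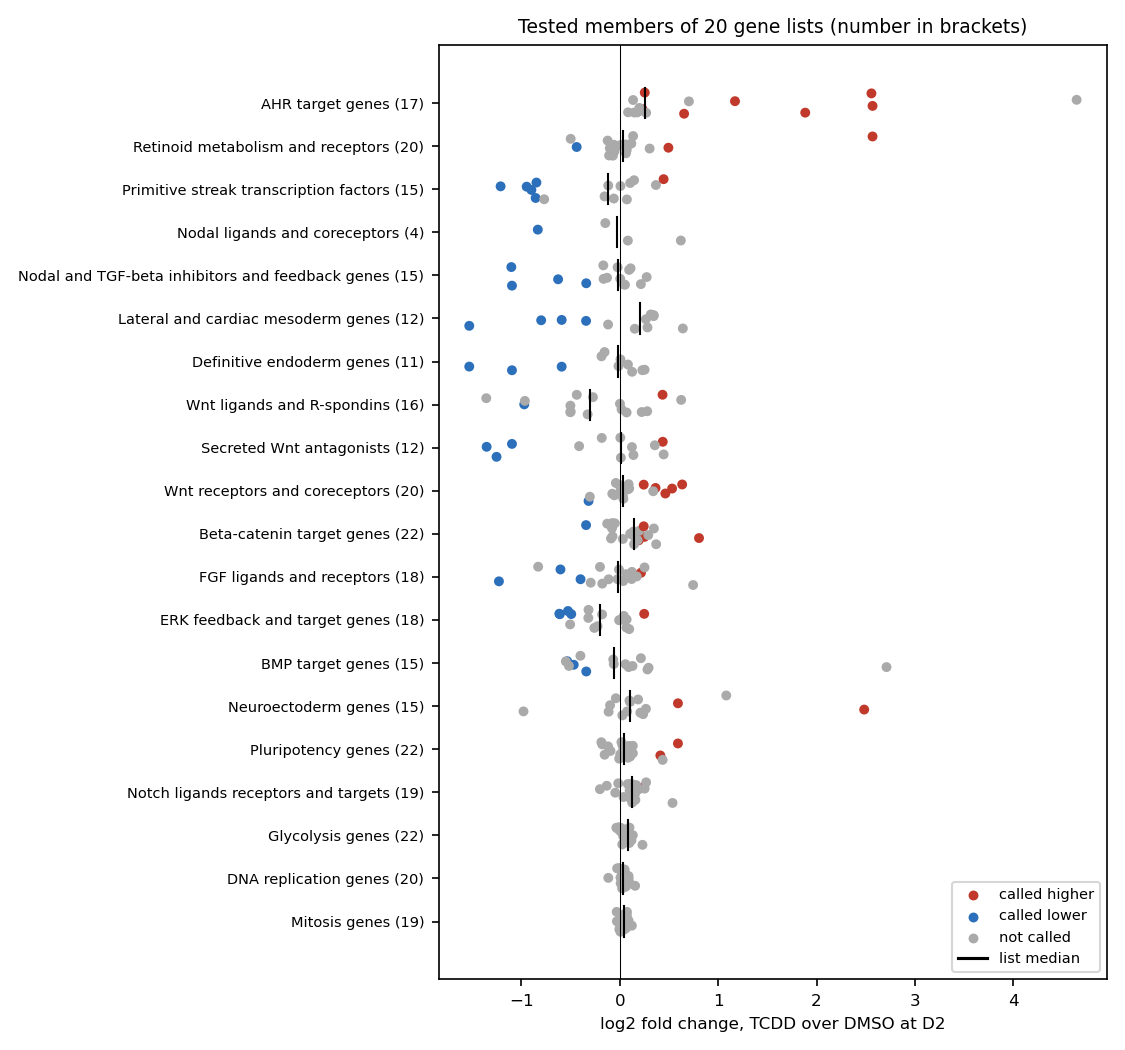
Log2 fold change at D2, TCDD over DMSO (x axis), of every tested member of 20 gene lists (rows, number of members in brackets), with genes called higher in red, called lower in blue and not called in grey, and the list median as a black bar. The medians lie within 0.3 of 0 in every row shown. Called points far from 0 include LRAT and CYP1A1 on the right and GATA6, DKK4 and MIXL1 on the left. Rows differ in their number of calls, with 7 of 17 AHR targets called. The grey point at 4.64 is CYP1A2, with 6 counts in all at D2.

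Cell adhesion and matrix genes held some of the larger differences. Of the protocadherins outside the gene clusters, a list added after values were seen, 2 of 12 were called higher and 2 lower. PCDH8, a protocadherin of somites and brain, was at 1.39 and 1.9 CPM with DMSO and 7.97 and 9.22 CPM with TCDD (log2 change 2.37 ± 0.17, edgeR adjusted p = 5.88e-08). PCDH18 was at 51.2 and 57.5 CPM with DMSO and 108 and 111 with TCDD (log2 change 1.01 ± 0.06, edgeR adjusted p = 3.1e-09). PCDH10 was lower, at 129 and 124 CPM with DMSO and 58.4 and 70.6 with TCDD (log2 change -0.97 ± 0.08, edgeR adjusted p = 4.19e-07), as was PCDH7 (-1.05, edgeR adjusted p = 0.00328, and 0.0745 to 0.0846 without DMSO replicate 2 or TCDD replicate 1). CDH2 (N-cadherin), which replaces CDH1 as cells leave the streak, was at 114 and 107 CPM with DMSO and 67.2 and 75.8 CPM with TCDD (log2 change -0.63 ± 0.06, edgeR adjusted p = 1.79e-06). CDH1 (E-cadherin) and EPCAM were not called (log2 changes 0.09 and 0.03), nor were SNAI1 and VIM (-0.19 and 0.01). ZEB2, a repressor of CDH1 that is also a neural factor, went the other way, at 3.38 and 4.87 CPM with DMSO and 7.52 and 8.47 with TCDD (log2 change 0.94 ± 0.15, edgeR adjusted p = 0.000644).

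HAS2, which makes the hyaluronan that mesoderm cells migrate through, was at 19.6 and 19.8 CPM with DMSO and 9.18 and 10.8 CPM with TCDD (log2 change -0.99 ± 0.10, edgeR adjusted p = 5.71e-06). SERPINE2, a protease inhibitor, was at 317 and 299.9 CPM with DMSO and 176 and 177 CPM with TCDD (log2 change -0.80 ± 0.05, edgeR adjusted p = 2.88e-08), and ADAMTS1, a matrix protease, at 32.4 and 33.8 CPM with DMSO and 17.8 and 19.5 with TCDD (log2 change -0.83 ± 0.07, edgeR adjusted p = 5.25e-07). The DMSO libraries of these 3 genes were all above the TCDD libraries. CNTNAP2, a neurexin-like adhesion protein, was at 1015 and 958 CPM with DMSO and 685 and 743 with TCDD (log2 change -0.47 ± 0.05, edgeR adjusted p = 2.56e-05). COL1A1, a chain of type I collagen, was higher, at 141 and 129 CPM with DMSO and 197 and 197 CPM with TCDD (log2 change 0.54 ± 0.05, edgeR adjusted p = 1.84e-06), while its partner COL1A2 was at 89.6 and 87.1 CPM with DMSO and 85.2 and 84.4 with TCDD and was not called (edgeR adjusted p = 0.662). DPYSL3, a cytoskeletal protein of growing neurites, was at 486 and 518 CPM with DMSO and 741 and 755 with TCDD (log2 change 0.58 ± 0.06, edgeR adjusted p = 7.91e-06). Laminins, fibronectin and the other matrix genes of the list stayed within 0.5 of 0 and, apart from FBN2 (-0.30, lower), were not called. FBN2 lost its call without either DMSO library or TCDD replicate 1 (edgeR adjusted p = 0.0994 to 0.167).

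Of 22 tested neuropeptides and G protein-coupled receptors 3 were called higher and 5 lower. NTS, the precursor of neurotensin, was at 37.7 and 34.6 CPM with DMSO and 18.6 and 16.9 CPM with TCDD (log2 change -1.02 ± 0.08, edgeR adjusted p = 4.06e-07). GAL, the precursor of galanin, was at 103 and 97.2 CPM with DMSO and 72.6 and 73.9 with TCDD (log2 change -0.45 ± 0.05, edgeR adjusted p = 1.55e-05), and GRPR, the receptor of gastrin-releasing peptide, at 15.2 and 14.1 CPM with DMSO and 9.66 and 8.75 with TCDD (log2 change -0.66 ± 0.09, edgeR adjusted p = 0.000116). The TCDD libraries were the lower pair in each. S1PR1, a sphingosine phosphate receptor, was at 3.11 and 2.68 CPM with DMSO and 5.53 and 5.58 CPM with TCDD (log2 change 0.94 ± 0.14, edgeR adjusted p = 0.000387), and its relative S1PR3 at 13.3 and 13.5 CPM with DMSO and 9.16 and 10.7 with TCDD (log2 change -0.44 ± 0.09, edgeR adjusted p = 0.00817), opposite in sign. S1PR3 lost its call without either DMSO library or TCDD replicate 1 (edgeR adjusted p = 0.075 to 0.136). ADRA2A, an adrenergic receptor, was at 1.58 and 1.95 CPM with DMSO and 4.06 and 4.1 with TCDD (log2 change 1.20 ± 0.20, edgeR adjusted p = 0.00156). HTR1D, a serotonin receptor outside the list, was at 13.3 and 12.1 CPM with DMSO and 24.7 and 21.7 with TCDD (log2 change 0.87 ± 0.09, edgeR adjusted p = 5.71e-06). Among 36 axon guidance genes the ephrin EFNB2 (0.51), the semaphorin SEMA3C (0.50) and the netrin NTN1 (0.39) were called higher and the ephrin receptor EPHA2 (-0.33) lower. NTN1 lost its call without DMSO replicate 1 or TCDD replicate 2 (adjusted p = 0.249 to 0.26) and EPHA2 without DMSO replicate 2 or TCDD replicate 1 (adjusted p = 0.0592 to 0.0621).

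Genes of growth, division and stress showed few or no calls. No gene was called by edgeR, DESeq2 or limma voom among 20 DNA replication, 19 mitosis, 22 glycolysis, 23 cholesterol synthesis, 22 amino acid stress and unfolded protein, 17 p53 target and 17 polycomb genes. At an unadjusted p under 0.05 these lists had 1, 1, 3, 3, 3, 1 and 3 genes, and all 17268 tested genes had 2438. By edgeR 2.95% of all tested genes were called, so the lack of a call in lists this short does not set them apart. ACTB and GAPDH, commonly used as references, were not called (log2 changes 0.07 and 0.04). The medians of the 7 lists ran from -0.018 (polycomb) to 0.080 (glycolysis). Of 17 hypoxia genes ADM, the vasodilator peptide adrenomedullin, was at 37 and 45.5 CPM with DMSO and 67.9 and 74.9 CPM with TCDD (log2 change 0.79 ± 0.07, edgeR adjusted p = 2.17e-06), and DDIT4, an inhibitor of mTOR, at 178 and 202 CPM with DMSO and 242 and 247 with TCDD (log2 change 0.37 ± 0.05, edgeR adjusted p = 0.000242). The oxygen-regulated VEGFA, PDK1, BNIP3 and EGLN1 were not called (log2 changes -0.06, -0.10, -0.06 and 0.02). Among 19 apoptosis regulators the pro-death BCL2L11 (BIM) was at 58.4 and 63.6 CPM with DMSO and 93.1 and 90.2 with TCDD (log2 change 0.59 ± 0.06, edgeR adjusted p = 5.71e-06) and the pro-survival BCL2L1 at 60.2 and 63.6 CPM with DMSO and 78.3 and 73.5 with TCDD (log2 change 0.29 ± 0.05, edgeR adjusted p = 0.0018). BCL2L1 lost its call without DMSO replicate 1 (adjusted p = 0.0814). PDP1, the phosphatase that switches on pyruvate dehydrogenase, was at 18.6 and 19.5 CPM with DMSO and 32.8 and 33.7 with TCDD (log2 change 0.80 ± 0.07, edgeR adjusted p = 4.54e-07). It was the called rise among 12 genes of that complex and its regulators, where the subunit PDHB was called lower (-0.17, edgeR adjusted p = 0.0331, and 0.172 to 0.383 without any 1 of the 4 D2 libraries).

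The D2 differences were then set beside those of the stem cells at D1, which have their own DMSO controls. At D1, 207 of the same 17268 genes were called (1.20%), 132 higher (0.764%) and 75 lower (0.434%). Both comparisons called 77 genes, which is 15.1% of the D2 calls and 37.2% of the D1 calls. Of these 77, 53 were higher at both times, 17 were lower at both and 7 went opposite ways. A test of the difference between the effects at the 2 times called 133 genes (0.770%), 85 with the higher effect at D2 (0.492%) and 48 with the lower (0.278%), of which 93 were called at D2. Without DMSO replicate 1 of D1 the D1 calls were 80. The called differences were 57 and 82 without DMSO replicate 1 or 2 of D1, 275 without TCDD replicate 1 of D1, 31 and 41 without DMSO replicate 1 or 2 of D2, and 77 and 42 without TCDD replicate 1 or 2 of D2. CYP1A1, LRAT, TIPARP and CYP1B1 had larger effects at D1. CYP1A1 had been at 0.76 and 0.813 CPM with DMSO and 101 and 77.7 CPM with TCDD, and its log2 fold change at D2 was lower than that at D1 by 4.27 (edgeR adjusted p of the difference = 0.00125). LRAT had been at 629.7 and 631 CPM with TCDD at D1, and its difference between the effects was -2.20 ± 0.10 (edgeR adjusted p = 1.81e-10). TIPARP (-1.55 ± 0.11) and CYP1B1 (-1.41 ± 0.09) had lower effects at D2 too (edgeR adjusted p = 2.86e-07 and 1.01e-07). APELA, SOX21, PCDH8, LHX4 and MYADML2, a gene of the myeloid differentiation marker family, had effects at D2 that did not pass a test of difference from those at D1, of 2.66, 2.48, 2.37, 2.00 and 2.57 at D2 and 2.55, 1.76, 1.98, 2.12 and 2.81 at D1 (edgeR adjusted p of the difference = 0.896, 0.418, 0.711, 0.926 and 0.873).

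**Figure D4:**
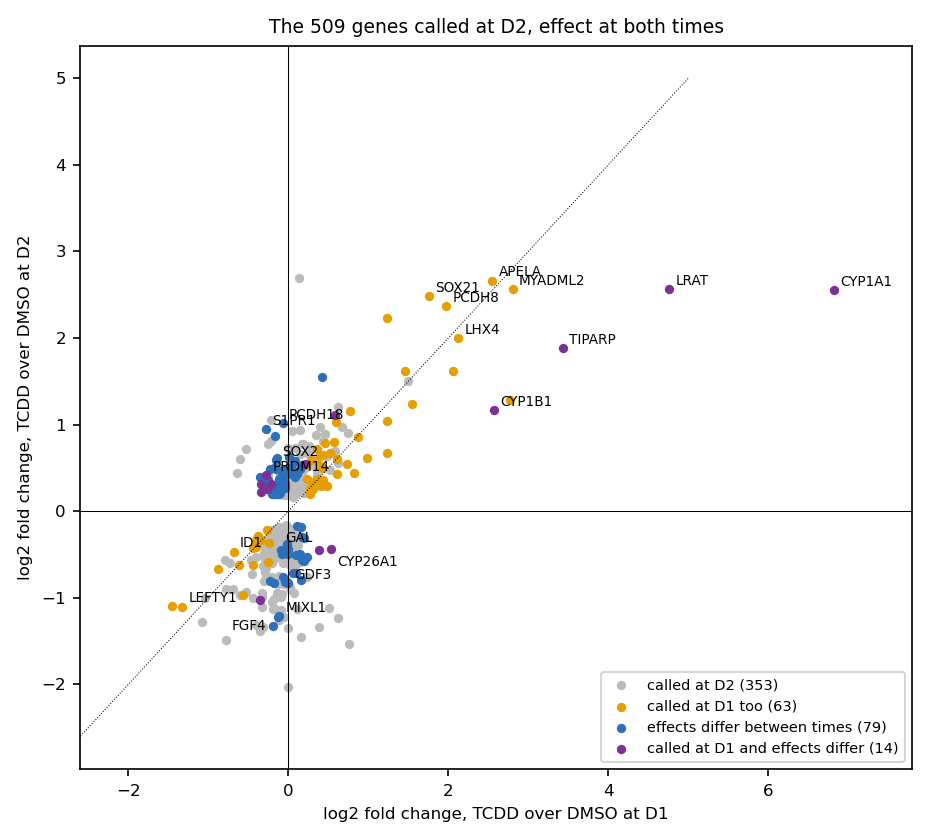
The 509 genes called at D2, with the log2 fold change of TCDD over DMSO at D1 (x axis) and at D2 (y axis); the dotted line marks equal effects. Of them, 353 were called at D2 alone, 63 at both times with no called difference, 79 differed between the times without a D1 call and 14 had both; CYP1A1, LRAT, TIPARP and CYP1B1 lie far below the line of equal effects.

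Some other genes also had TCDD effects that differed between D2 and D1 by the test of the difference. MIXL1 (D2 minus D1 -1.10 ± 0.23, edgeR adjusted p = 0.0281), FGF4 (-1.09 ± 0.24, adjusted p = 0.0375) and GDF3 (-0.82 ± 0.15, adjusted p = 0.011) had the lower effects at D2. MIXL1 and FGF4 were low at D1, with FGF4 at 1.09 and 1.32 CPM with DMSO and 1.17 and 1.02 CPM with TCDD. T and EOMES were at or under 0.21 CPM in every D1 library, and for both the difference did not pass (edgeR adjusted p = 0.989 and 0.669). PCDH18 (1.08 ± 0.08, edgeR adjusted p = 6.69e-07), SOX2 (0.75 ± 0.07, adjusted p = 1.58e-05) and HTR1D (1.03 ± 0.12, adjusted p = 0.000239) had the higher effects at D2. LEFTY1, LEFTY2 and CER1 were called lower at D1 as well as at D2. Their log2 fold changes at D1 were -1.32, -0.62 and -1.45 (edgeR adjusted p = 0.000572, 0.0254 and 0.0389). The 7 genes called in opposite directions were GAL and CYP26A1, higher at D1 (0.38 and 0.54) and lower at D2 (-0.45 and -0.44), and 5 with the reverse pattern. The 5 were PRDM14 (-0.28 at D1 and 0.41 at D2), the chromatin remodeller SMARCA2 (-0.34 and 0.22), the hyaluronan-degrading TMEM2 (-0.27 and 0.26), AUTS2 (-0.22 and 0.31) and PLCL2 (-0.34 and 0.31). At D2, SMARCA2 and PLCL2 lost their calls without any 1 of the 4 libraries (edgeR adjusted p = 0.091 to 0.226 and 0.0791 to 0.272) and TMEM2 without DMSO replicate 1 or TCDD replicate 2 (adjusted p = 0.11 to 0.18). CYP26A1 lost its call without DMSO replicate 1 or either TCDD library (adjusted p = 0.0932 to 0.223).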

How the data were processed

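Total RNA of MEL1 cells was sequenced in 8 libraries, and groups came from the sample titles. The deposited tables hold raw read counts per gene symbol, with no normalisation, as their whole-number values show. Per the submitters' processing notes, the tools were cutadapt 1.9.1, STAR and featureCounts 1.5.1, with build hg19. Gene annotation, strandedness and the handling of multi-mapping reads were not stated in these sources, so overlapping, antisense and near-identical genes are uncertain. All 8 libraries (34873055 to 43770420 counts) entered 1 fit in R 4.3.3 with edgeR 4.0.16: filterByExpr on the 4 groups, TMM scaling (factors 0.958 to 1.04), a mean per group, 4 residual degrees of freedom and two-sided quasi-likelihood F tests with Benjamini-Hochberg adjustment over 17268 genes. The common biological coefficient of variation was 3.86%. Standard errors (SE) are derived from the F statistic.

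Replicates were kept as separate samples: a chi-square of their counts gave 3.21 per gene with DMSO and 4.43 with TCDD at D2, above the 1 of sampling noise, where separate cultures and technical repeats cannot be told apart. Tested on simulated data for this comparison (17144 genes), the fit called 30 of 50 genes changed 1.25-fold, 36 of 49 at 1.5-fold, 45 of 49 at 2-fold and 48 of 49 at 4-fold, with 10 false among 169 calls. The simulated libraries were drawn independently from the kind of model that the test assumes. They lack the joint deviations of same-numbered replicates given below, so these figures do not give the error rate in the real libraries. The alternatives were RLE and no scaling, DESeq2 1.42.0, limma 3.58.1 voom, other filters, a robust fit, a replicate block, a fit of the 4 libraries of 1 time and fits without each library. The gene lists and rules were chosen with earlier results of these data known, and 5 lists (protocadherins outside the clusters, Hedgehog, actin, nuclear retained RNAs, pyruvate dehydrogenase) after values of this fit were seen.

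The genes named are the 20 largest called rises and falls with at least 1 CPM and no overlap, the 10 smallest p-values and the 8 largest CPM differences in each direction, up to 8 called and 3 uncalled members of each list, a set of AHR, streak, mesoderm, pluripotency and reference genes always included, and the 8 largest differences between the times each way. Small and long non-coding RNAs and uncharacterised loci, recognised by their symbols, were passed over. Genes named outside this rule, among them uncalled list members, were picked with their values in view. Promoter sequences came from RefSeq on GRCh38.p14, and no coordinates were converted between builds. A few of the genes chosen in this way are left out of the text.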

Additional observations from a re-analysis of the deposited data

Results flagged for a closer look

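These genes had TCDD effects that differed between D2 and D1 by the edgeR test of the difference itself, over 17268 genes with Benjamini-Hochberg adjustment. Values are the log2 fold change at D2 minus that at D1, each over 2 libraries a group. Effects were lower at D2 for CYP1A1 (-4.27), LRAT (-2.20), TIPARP (-1.55), CYP1B1 (-1.41) and DNAH5 (-1.35), an axonemal dynein, all of them higher with TCDD at both times by their fitted value. DNAH5 had a log2 fold change of 1.93 at D1 (edgeR adjusted p = 2.64e-07) and 0.57 at D2 (edgeR adjusted p = 0.161). GMPR (-1.14), a GMP reductase, MIXL1 (-1.10), FGF4 (-1.09) and GDF3 (-0.82) were not called at D1 (-0.19, -0.11, -0.13 and -0.01) and lower at D2. CYP26A1 (-0.97) and GAL (-0.83) changed sign.

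Effects were higher at D2 for TMEM2 (0.53), AUTS2 (0.53), SMARCA2 (0.56), PLCL2 (0.65), PRDM14 (0.69), NTN1 (0.74), SOX2 (0.75), HES3 (0.75), PEG13 (0.96), PROX1 (1.01), HTR1D (1.03), PCDH18 (1.08) and S1PR1 (1.22). PEG13, a non-coding RNA of an imprinted region, was called lower at D1 (-0.78, edgeR adjusted p = 0.000111) and not called at D2 (0.19, edgeR adjusted p = 0.74). PROX1, a homeobox factor, was at 0.28 at D2 and -0.73 at D1, neither called (edgeR adjusted p = 0.224 and 0.052). The adjusted p of the difference ran from 1.81e-10 for LRAT to 0.0446 for S1PR1.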

How the results depend on the processing

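The 509 D2 calls (243 higher, 266 lower) became 500 with RLE scaling, 536 with no scaling, 465 with limma voom, 500 with a robust fit, 701 with only the 4 D2 libraries (330 and 371) and 364 with DESeq2, where 157 were lower. With no filter beyond 1 count they were 908 (430 and 478). Fits without 1 library gave 198 to 648 calls, 96 to 319 higher and 102 to 329 lower. At D1, 207 calls (132 and 75) became 505 (245 and 260) with no filter, 114 (83 and 31) with only the D1 libraries, and 80 to 265 (70 to 152 and 10 to 172) without 1 library. The 133 differences between the times (85 and 48) became 468 (274 and 194) with no filter and 31 to 275 (17 to 203 and 14 to 72) without 1 library. The cause was not tested. The median log2 fold change of all genes was 0.00081, and -0.018 to 0.0089 across scalings.

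Same-numbered replicates deviated together at D2 (Pearson r 0.21 across 10375 genes, which are not independent) and D1 (0.31), but the labels do not say what the number means and there are 2 pairs. With the replicate block, 1134 genes were called at D2 (584 higher, 550 lower), all 509 among them, 595 at D1 (277 and 318) and 573 for the difference (361 and 212); it ended no call named in the text.

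Of 141 D2 calls examined gene by gene, 77 held in all 8 fits without a library and 74 in every alternative, and none changed sign. Leaving out a library leaves 1 in its group, which is then assumed to vary like the others. DESeq2 ended 28 of the 141 calls, the robust fit 12 and voom 7. Of 162 uncalled genes examined, 23 were called in at least 1 of 17 alternatives, among them DLL1 in 7, SKIL in 5, HES1 in 3, WNT8A in 2 and NODAL, SMAD7 and POU5F1 in 1. At this depth 9 called genes were under 1 CPM in both groups.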

Other observations

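The groups of genes given here were chosen after values were seen. Among 511 tested zinc finger genes whose symbols begin with ZNF, 11 were called lower (2.15%) and 1 higher (0.196%), against 1.54% lower and 1.41% higher of all tested genes, and 326 of the 511 had a log2 fold change below 0 (median -0.039). ZNF578 was at 68 and 67.6 CPM with DMSO and 47.8 and 48.8 CPM with TCDD (log2 change -0.49, edgeR adjusted p = 2.11e-05), and ZNF600 at 44 and 44.1 CPM with DMSO and 31.7 and 31.8 with TCDD (log2 change -0.47, edgeR adjusted p = 5.4e-05). These genes share long similar stretches, and reads may be split between them. In the Hedgehog pathway 2 of 10 tested genes were called, both higher, beside 1.41% of all tested genes. The receptor PTCH1 was at 59.6 and 61.3 CPM with DMSO and 80.6 and 86.3 CPM with TCDD (log2 change 0.46, edgeR adjusted p = 0.00613). The factor GLI2 was at 32.8 and 33 CPM with DMSO and 43.8 and 45.2 with TCDD (log2 change 0.44, edgeR adjusted p = 0.000126). Of 18 actin and contractile genes the 3 called were higher, TAGLN (0.45), MYL9 (0.37) and TPM2 (0.28). PTCH1 and MYL9 lost their calls without either DMSO library or TCDD replicate 2 (edgeR adjusted p = 0.0568 to 0.104 and 0.054 to 0.12), with DESeq2 and with a robust fit, and TPM2 without DMSO replicate 1 or TCDD replicate 2 (adjusted p = 0.0889 to 0.105).

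A list of 13 RNAs known to stay in the nucleus or to be tied to nuclear speckles was added after values were seen. Of these, 5 were called lower (38.5%), against 1.54% of all tested genes. DESeq2 called 3 of the 13 lower and limma voom 5. A log2 fold change below 0 was seen in 12 of the 13, while 50.28% of all tested genes were above 0. Because the list was made with these values in view, its shares describe its members and are no test of enrichment. NEAT1, the scaffold of paraspeckles, was at 75.9 and 79.7 CPM with DMSO and 67 and 54.7 CPM with TCDD (log2 change -0.35, edgeR adjusted p = 0.01), and LENG8 at 172 and 190.1 CPM with DMSO and 163 and 146 with TCDD (log2 change -0.23, edgeR adjusted p = 0.0324). NEAT1 lost its call without either DMSO library or TCDD replicate 2 (edgeR adjusted p = 0.055 to 0.272) and LENG8 without replicate 2 of either group (adjusted p = 0.448 to 0.522). In both, TCDD replicate 2 was the lowest library, which also held the least RNR2. Whether RNA quality had a part was not tested. Among the 509 called genes, 43 pairs were next to each other in the order of tested genes, and 34 of these pairs moved in the same direction. How many such pairs a set of this size would give was not computed, so neither count has a reference. The same-direction pairs include antisense genes, such as TIPARP-AS1 and TIPARP, and ZNF genes, such as ZNF578 and ZNF808, whose reads may be shared. Median log2 fold changes of 23 chromosomes ran from -0.022 to 0.030 over 14023 genes of at least 1 CPM.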
